A study of Mus musculus with 2 samples.

Results

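The transcripts of 48 actin assembly genes were counted in single iMac cells of the mouse, macrophages that were made, according to the title of the series, from fibroblasts with c-Myc as the sole factor. The genes were chosen by symbol, and all 48 have a row among the 20034 genes of the count table. They were read in 6751 of 6837 barcodes, those that hold 500 genes or more and no more than 15% mitochondrial counts. GEO has 2 samples for them, labelled as the cDNA and the oligo library, and both come from wild type cells that were lifted with EDTA and run on the DNBelab C4 droplet platform. The barcode names carry no library, so the matrix was taken as 1 sample of 1 group with no replicate. No test between conditions was possible, no p-value was computed, and every interval given here is a 95% interval of counting error only. How many cultures were pooled, how long after c-Myc the cells were taken and their strain were not given in the labels read here.

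Actin is a globular protein whose monomers join into filaments that grow at one end and shrink at the other. Profilin and thymosin beta hold the monomer pool. The Arp2/3 complex starts branches when WASP and WAVE proteins switch it on below the membrane. Formins and Ena/VASP proteins lengthen filaments, capping proteins stop growth, cofilin and gelsolin cut filaments, and myosin II pulls on them. In macrophages the machinery drives ruffling, podosomes, migration and the closing of phagocytic cups. Actin monomers also hold back the MRTF cofactors of the transcription factor SRF, which binds the CArG box in the promoters of many cytoskeletal genes.

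The upstream bases of 4 of the genes are shown here because 3 of them hold a CArG box and because Rhoc differed most along the score of macrophage maturation described further on. Each run covers the 250 bases before the RefSeq start of the gene in build GRCm38.p6, read 5′ to 3′ on the gene's own strand, with a CArG box or CACGTG in capitals. Actg1 lies on chr11:120348496-120348745 (minus strand), Myl6 on chr10:128493010-128493259 (minus strand), Arpc4 on chr6:113377863-113378112 (plus strand) and Rhoc on chr3:104788784-104789033 (plus strand).
Actg1: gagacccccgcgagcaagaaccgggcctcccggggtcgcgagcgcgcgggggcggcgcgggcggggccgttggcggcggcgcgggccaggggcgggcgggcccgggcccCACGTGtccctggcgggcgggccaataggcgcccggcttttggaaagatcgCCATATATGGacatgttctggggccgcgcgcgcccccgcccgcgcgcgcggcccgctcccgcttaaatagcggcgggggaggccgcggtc
Myl6: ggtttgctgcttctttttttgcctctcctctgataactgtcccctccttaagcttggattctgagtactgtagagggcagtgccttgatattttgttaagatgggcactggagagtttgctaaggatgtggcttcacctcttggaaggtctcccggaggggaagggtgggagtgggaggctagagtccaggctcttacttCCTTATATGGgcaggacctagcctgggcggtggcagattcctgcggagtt
Arpc4: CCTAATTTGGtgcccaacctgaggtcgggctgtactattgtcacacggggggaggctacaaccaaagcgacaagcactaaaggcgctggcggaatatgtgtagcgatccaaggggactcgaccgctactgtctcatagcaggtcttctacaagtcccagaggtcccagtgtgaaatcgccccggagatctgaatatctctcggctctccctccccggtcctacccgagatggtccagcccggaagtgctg
Rhoc: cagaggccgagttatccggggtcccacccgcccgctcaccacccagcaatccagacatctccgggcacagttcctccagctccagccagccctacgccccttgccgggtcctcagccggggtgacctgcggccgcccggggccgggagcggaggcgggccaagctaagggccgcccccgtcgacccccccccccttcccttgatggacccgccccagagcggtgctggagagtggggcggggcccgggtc

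The table of promoters has entries for 42 of the 48 genes, 57 in all, each reaching from 250 bases before the start to 50 bases after it. It has none for Actb, Arpc5l, Diaph1, Coro1b, Rac1 and Rac2. A CArG box on either strand was in 3 of the 57 entries (5.26%), against 1.63% of all 32851. It begins 90 bases before the start of Actg1, 50 bases before that of 1 of the 2 Myl6 entries and 250 bases before that of Arpc4. The E-box CACGTG, a sequence that Myc and its partner Max can bind, was in 4 entries (7.02%), those of Actg1, Cfl2, Arpc5 and Myl12a, against 7.15% of all. The PU.1-type sequence GAGGAAGT was in 1 entry (1.75%), that of Arpc1b, against 3.20% of all, and the AP-1 sequence TGANTCA in 1 entry, that of Myl12a, against 7.81% of all. No 2 of these 4 motifs shared bases in the entries of the genes. The only Rhoc entry holds none of the 4, and neither do the 3 entries of Gsn. A match is a string of letters and was not tested as a binding site.

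The 6751 cells hold 160363508 counts, and a typical cell holds 17178 counts and 3160 genes (medians), with counts between 1001 and 192369. Of the cells, 1544 have fewer than 5000 counts. All 12 macrophage markers reached 10 CPM (counts per 1000000 counts), led by Tyrobp at 5699.7 CPM and Lyz2 at 3578 CPM. Of 11 fibroblast markers, 5 have a row, none reached 10 CPM and Sparc was highest at 2.72 CPM. Of the 15 genes in a list of mesenchymal and muscle cytoskeleton genes, 14 have a row and none reached 10 CPM. Among these, smooth muscle actin Acta2 was at 0.493 CPM, the actin-binding gene Tagln at 0.193 CPM and caldesmon Cald1 highest at 9.53 CPM. No cell type that lacks actin genes was identified, so the share of counts from free RNA was not estimated.

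Actin assembly genes made up 2.79% of all counts, and 47 of the 48 reached 10 CPM, against 33.2% of all genes. Levels of 100 CPM were reached by 33 (5.90% of all genes) and of 1000 CPM by 6 (0.744% of all genes). Their median was 219 CPM, against 2.03 CPM over all genes and 30.9 CPM over genes of at least 10 CPM. Per cell the share of counts had a median of 2.75%, and 90% of cells lay between 1.72% and 4.08%. Over 10 equal groups of cells by depth its median ran from 2.55% in the fourth group to 3.01% in the second, and the 2 shallowest groups were the highest. Without Actb and Tmsb4x the genes held 1.56% of all counts.

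**Figure D1:**
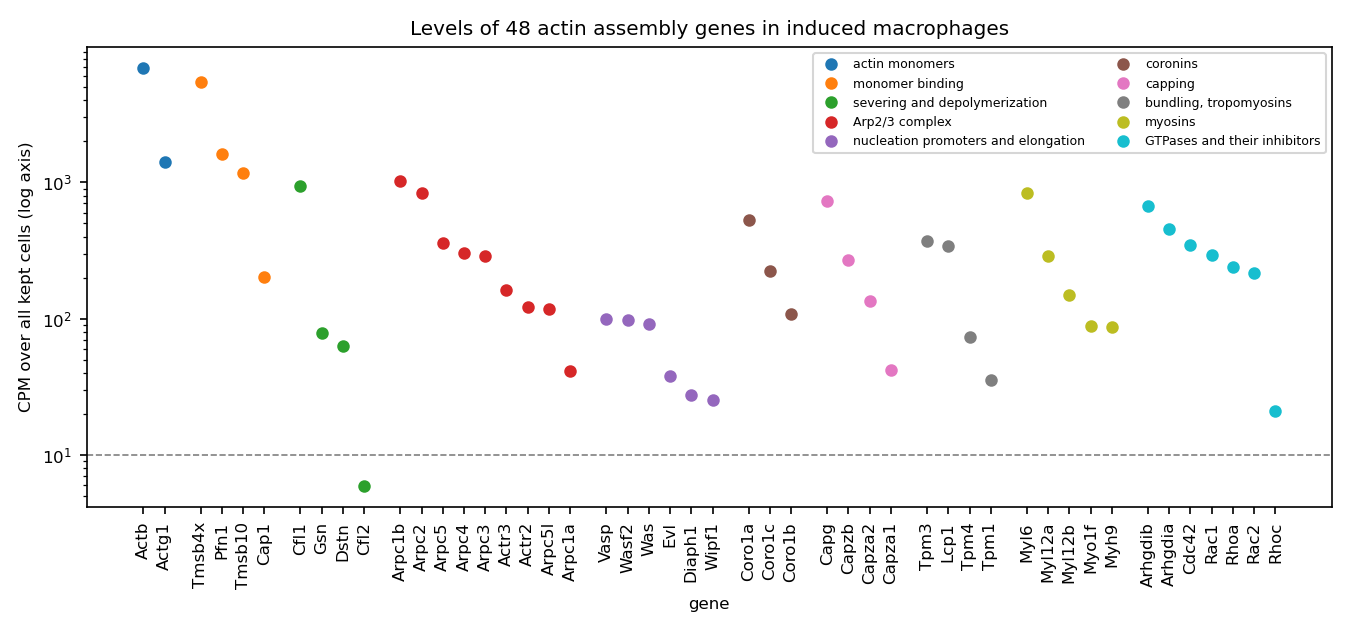
Level of each actin assembly gene over all kept cells, in CPM on a log axis, grouped by role and ordered within each role. Each point is the pooled level of 6751 cells, counting intervals are smaller than the points for most genes, and the dashed line marks 10 CPM, which Cfl2 at 5.90 CPM did not reach.

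The actin monomer genes and the genes whose products bind monomers took more than the other 8 roles together. Cytoplasmic beta-actin, Actb, was counted at 6891 CPM (6878 to 6904) and found in 99.9% of cells, and gamma-actin, Actg1, at 1397 CPM (1391 to 1403) in 97.8% of cells. Both actins held 29.7% of the counts of the 48 genes. Among the monomer-binding genes, thymosin beta 4, Tmsb4x, was at 5391 CPM, profilin 1, Pfn1, at 1599 CPM and thymosin beta 10, Tmsb10, at 1174 CPM. Cap1, which returns monomers to use after filaments break down, was at 202 CPM. These 4 genes held 29.96% of the counts of all 48.

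Levels of different genes were compared per kilobase of annotated exon. On that scale Tmsb4x was first at 3932 CPM per kb and Actb second at 3589, followed by Pfn1 at 1559, Tmsb10 at 920 and Actg1 at 716. Arhgdib came sixth at 498 CPM per kb, Myl6 seventh at 493 and Arpc2 eighth at 467. The lowest were Wipf1 at 4.99, Diaph1 at 4.72 and Cfl2 at 2.01 CPM per kb. Whether the counted reads come from the whole transcript or from one end was not stated, so this order may not carry to transcript numbers. In counts without regard to length, Actb rather than Tmsb4x was first.

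Genes of filament cutting were dominated by cofilin 1. Cfl1 was at 944 CPM, the related destrin, Dstn, at 63.4 CPM and the muscle-type cofilin Cfl2 at 5.90 CPM (5.53 to 6.29) and found in 10.7% of cells. Gelsolin, Gsn, which cuts and caps filaments, was at 79.0 CPM in 58.1% of cells.

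All 9 genes of the Arp2/3 complex reached 10 CPM and together they held 11.7% of the counts of the 48 genes. The p40 subunit gene Arpc1b was at 1029 CPM and the p34 subunit gene Arpc2 at 838 CPM. Arpc5 (357 CPM), Arpc4 (302 CPM) and Arpc3 (290 CPM) were next. The actin-related Actr3 and Actr2, which form the start of the new branch, were at 163 and 123 CPM, Arpc5l was at 118 CPM and Arpc1a at 41.6 CPM. Per kilobase of exon Arpc2 was the highest of the 9.

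Genes that switch the complex on or lengthen filaments were the lowest class, with 1.36% of the counts of the 48 genes. Vasp was at 100.1 CPM, Wasf2, which encodes WAVE2, at 98.4 CPM and Was, which encodes the blood cell protein WASP, at 91.6 CPM. The related Ena/VASP gene Evl was at 37.8 CPM, the formin gene Diaph1 at 27.4 CPM and Wipf1, whose product binds WASP, at 25.5 CPM. The coronins, which bind filaments and the Arp2/3 complex, were at 528 CPM for Coro1a, the form of blood cells, at 223 CPM for Coro1c and at 108 CPM for Coro1b. Among capping genes, Capg, a gelsolin relative of macrophages, was at 723 CPM, the beta subunit gene Capzb at 269 CPM and the alpha subunit genes Capza2 and Capza1 at 136 and 42.4 CPM.

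Of the genes that bundle or coat filaments, Tpm3 was at 372 CPM, L-plastin, Lcp1, at 342 CPM, Tpm4 at 73.9 CPM and Tpm1 at 35.7 CPM. Among the myosins, the light chain gene Myl6 was at 834 CPM, Myl12a at 287 CPM and Myl12b at 149 CPM, with the class I myosin Myo1f at 88.5 CPM and the myosin II heavy chain Myh9 at 86.7 CPM. Of the genes for GTPases and their inhibitors, Cdc42 was at 345 CPM, Rac1 at 292 CPM, Rhoa at 239 CPM, the blood cell form Rac2 at 216 CPM and Rhoc at 21.1 CPM (20.4 to 21.8). The inhibitors, which hold GTPases in the cytosol, were at 671 CPM for Arhgdib and 456 CPM for Arhgdia. Rhoc had a count in 23.3% of cells, fewer than any other of these genes except Cfl2.

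A further list of 68 actin regulators outside the 48 was set beside these levels. Both lists were chosen with earlier results of these data known, so it is not an independent background. Of them 67 have a row and 48 reached 10 CPM, with a median of 29.2 CPM over those with a row. The highest were Tagln2 (456 CPM), Brk1 (212 CPM), Flna (192 CPM) and Cotl1 (176 CPM). SRF and its cofactors were low, with Mrtfa at 10.6 CPM, Srf at 10.01 CPM and Mrtfb at 6.09 CPM.

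Near-identical sequence could move counts between some genes. Windows of 100 bases in the last 500 bases of each gene's longest coding transcript were looked up in the transcripts of all other genes of GENCODE M21, the annotation of GRCm38. For 43 of the 48 genes none was shared. Shared windows were found for Coro1b (83.0%, with the overlapping Ptprcap), Capza1 (44.4%, with Gm3608), Tpm3 (34.9%, with Tpm3-rs7), Tmsb10 (31.7%, with Gm9844 and Gm3788) and Actr3 (21.4%, with Gm8822). How the authors assigned such reads, and whether strand was used, was not stated, so the values of these 5 genes are less certain.

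Cell-to-cell spread was measured after every cell with at least 10000 counts had been thinned to 10000, which kept 4312 cells. Squared variation beyond counting error had a median of 0.142 over the 47 genes of at least 10 CPM, against 0.365 over all 6656 genes of that level. Higher genes vary less by this measure, and for genes of at least 100 CPM the medians were 0.113 over 33 actin assembly genes and 0.139 over 1183 genes. Rhoc stood far from the rest, at 3.98 and the 99.4th percentile of all genes tested. The next highest were Gsn at 0.895, Tpm1 at 0.642 and Wipf1 at 0.581. At the other end lay Arhgdib at 0.0473 and Arpc4 at 0.0485.

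Correlations over the same thinned cells are a description, since all points share 1 library and sums to 10000. Over the 12 genes of at least 500 CPM, the 66 pairs had a median Pearson r of 0.14, against 0.06 over pairs of 254 genes at that level. Actb and Actg1 had the highest r at 0.43, followed by Actg1 with Tmsb4x at 0.38 and Actb with Arpc2 at 0.32. Tmsb10 did not follow Actb, with an r of -0.05. Within the largest cluster of cells, 1033 of them deep enough, the median r was 0.14.

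The series has no second condition, so differences inside the sample were described along 3 scores that use none of the 48 genes. Each score is the share of a cell's counts taken by a gene list. Cells were ranked within 10 depth groups and cut into 5 equal groups, of which the highest is called the top and the lowest the bottom. Top and bottom hold 1350 cells each, at median depths of 17197 and 17201.5 counts for the macrophage maturation score. A gene was called higher or lower past 1.5-fold of pooled CPM, with 1 CPM added to both values. Top and bottom are ranges of a score and not cell types, and for maturation 1130 cells lay near a limit between groups.

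The maturation score sums 15 genes of mature macrophages such as Ms4a7, Folr2, C1qa, Apoe and Gpnmb. Of the 6220.1 CPM of the whole list, 74.6% came from Apoe, Gpnmb, Ctsb and Ctsd and 31.6 CPM from Ms4a7 and Folr2. Cells at its top had more actin assembly transcripts, 3.14% of counts against 2.62% at its bottom. Rhoc and Gsn differed most. Of the 47 genes of at least 10 CPM, 6 were past 1.5-fold higher and 1 lower, beside 10.3% and 6.96% of the 6641 genes tested. The share of the genes called higher is thus near the background. A ratio above 0 was found for 38 of 47, and also for 38 of 47 along the immediate-early score described below. How many of all genes had a ratio above 0 was not counted. The median log2 ratio of the 47 genes along maturation was 0.23, against -0.08 over all genes tested. With ribosomal, mitochondrial and rRNA-locus genes left out of the totals, 4 of the 47 were higher and 1 lower, beside 8.93% and 10.98% of all genes.

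Rhoc, a GTPase linked to cell movement, was at 56.0 CPM (53.4 to 58.6) in top cells, against 5.15 CPM (4.39 to 5.998) in bottom cells. From the lowest group to the highest it was at 5.15, 9.37, 15.7, 19.6 and 56.0 CPM, so most of the gain lies between the last 2 groups. The plain ratio of the 2 levels was 10.9 (9.26 to 12.8), and the log2 ratio with 1 CPM added to both was 3.21. The log2 ratio was 2.12 with 10 CPM added and 3.84 between the highest and lowest of 10 groups of cells. It was 3.30 with a score that left out Apoe, Gpnmb, Ctsb and Ctsd, an alternative added after the values had been seen. In cells thinned to 10000 counts, which left out 481 and 489 shallower cells, Rhoc had a count in 34.9% of top cells (31.7 to 38.1) and 4.88% of bottom cells (3.54 to 6.54). Before thinning these shares were 45.2% and 8.67%.

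Gsn was at 159 CPM (154 to 163) in top cells, against 35.6 CPM (33.6 to 37.8) in bottom cells, a log2 ratio of 2.12. Over the 5 groups from low to high it was at 35.6, 50.1, 64.0, 87.5 and 159 CPM, higher at every step. At equal depth 72.7% of top cells and 29.2% of bottom cells had a count. Before thinning the shares were 75.7% and 44.4%.

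The other 4 genes past 1.5-fold differed much less. The Ena/VASP gene Evl was at 51.1 CPM in top cells and 30.7 CPM in bottom cells (log2 0.72), and the capping gene Capg at 936 and 582 CPM (log2 0.68). Cap1 was at 254 CPM in top cells and 161 CPM in bottom cells (log2 0.65). Arpc3 was at 368 CPM in top cells and 239 CPM in bottom cells (log2 0.62). Evl, Capg, Cap1 and Arpc3 were higher in each next group, as were 22 of the 47 genes in all. How many of all genes were higher or lower in each next group was not counted, so this number has no background. Myl6 at log2 0.56, Tpm4 at 0.55 and Coro1c at 0.49 were just short of the limit. When cells were ranked also within groups of the G2 and M phase score, Evl (0.57) and Arpc3 (0.54) fell short of it as well. With the score that left out Apoe, Gpnmb, Ctsb and Ctsd, 5 genes were higher and Arpc3 (0.57) was not among them.

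On the other side Arpc5l, an alternative p16 subunit of the Arp2/3 complex, was at 86.9 CPM in top cells, against 147 CPM in bottom cells, a log2 ratio of -0.75. Its values over the 5 groups from low to high were 147, 126, 121, 109.9 and 86.9 CPM. Coro1a was at 445 CPM at the top and 587 CPM at the bottom (log2 -0.40), and Arhgdib at 610 CPM at the top and 721 CPM at the bottom (log2 -0.24). Arpc5l, Coro1a and Arhgdib were the 3 genes of 47 that were lower in each next group, again without a count over all genes. The heavy chain gene Myh9 was at 81.8 CPM in top cells and 92.4 CPM in bottom cells (log2 -0.17).

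**Figure D2:**
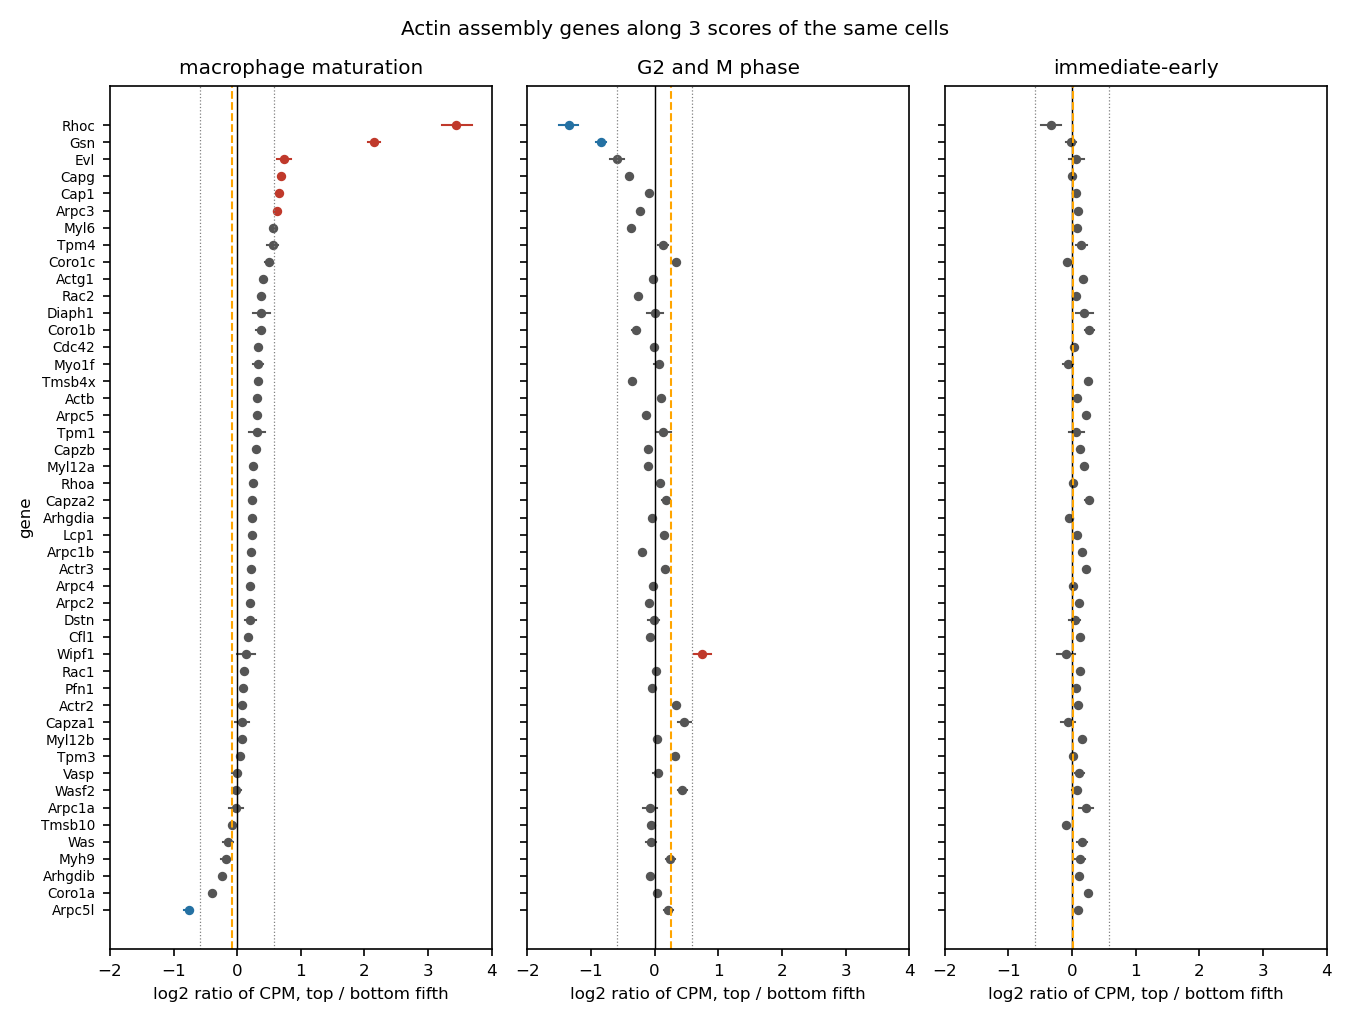
Ratio of pooled CPM between top and bottom cells (log2, no CPM added) for 47 genes along the maturation, G2 and M phase and immediate-early scores, each line a 95% counting interval and each end 1350 cells. Red and blue mark genes called higher and lower past 1.5-fold (dotted lines), the dashed orange line is the median of all genes tested, and Rhoc and Gsn stand apart on the first 2 panels in opposite directions.

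By role, the actins, capping genes and myosins had the larger summed ratios along maturation. Capping genes summed to 1442 CPM in top cells and 1005 CPM in bottom cells, a ratio of 1.43, and most of that difference came from Capg. Myosin genes summed to 1712 CPM at the top and 1303 CPM at the bottom, a ratio of 1.31. Both actins together were at 9419 CPM at the top and 7496 CPM at the bottom, a ratio of 1.26. Genes of filament cutting, Gsn among them, were close behind at a ratio of 1.24. Arp2/3 complex genes had a ratio of 1.16 with 7 of 9 above 0 on the log2 scale. Genes of nucleation promoters and elongation had 1.05 with 3 of 6 above 0. Coronins were the single role whose sum was lower, at 838 CPM in top cells and 874 CPM in bottom cells. Of the 3 coronins, 2 had a log2 ratio above 0, and the lower sum came from Coro1a.

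**Figure D3:**
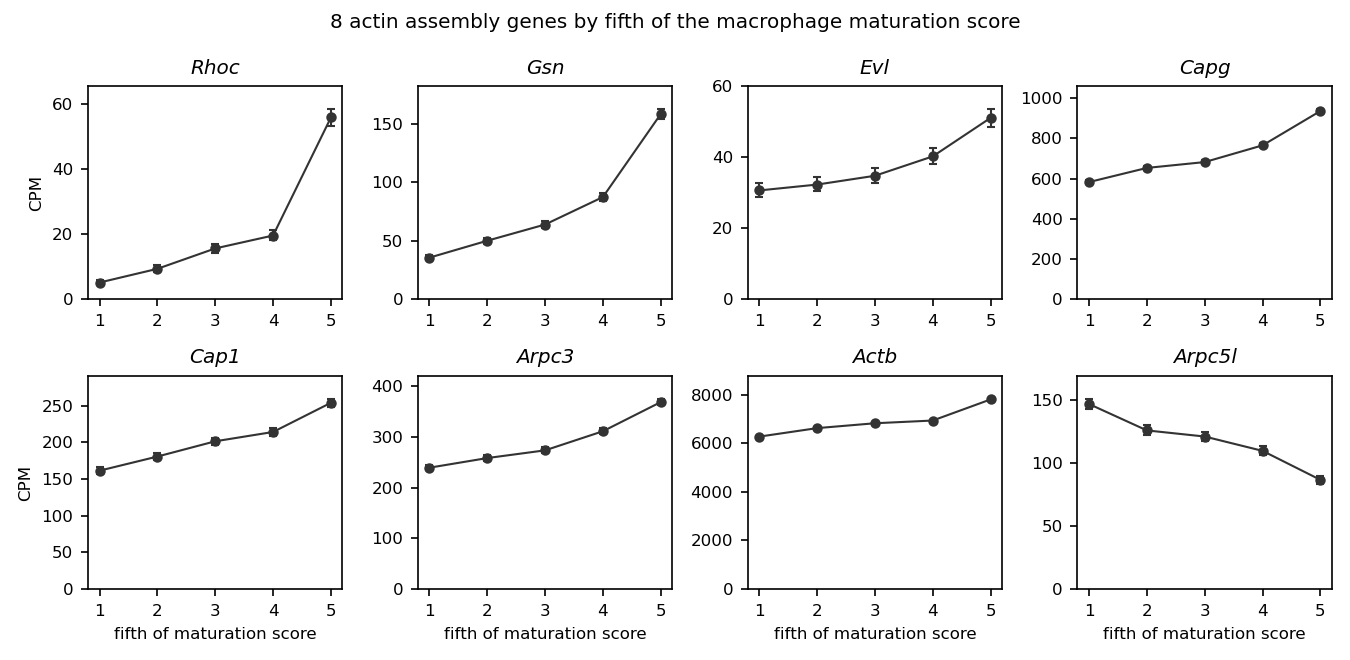
Pooled CPM of 8 actin assembly genes in 5 equal groups of cells by the maturation score, lowest group at the left, with 95% Poisson intervals and axes that start at 0. Rhoc and Gsn differ most, Evl, Capg, Cap1, Arpc3 and Actb are higher at each step, and Arpc5l is lower at each step and ends at 86.9 CPM.

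Other groups moved along the same score. Of the 48 further actin regulators of at least 10 CPM, 10 were higher and 1 lower, beside 10.3% and 6.96% of all genes tested. The median log2 ratio of the 48 was 0.20. Marcks, a membrane protein that binds actin, was at 73.9 CPM in top cells and 7.44 CPM in bottom cells (log2 3.15). Myo1e (log2 2.07), the macrophage gene Aif1 (1.78) and the monomer-binding Twf1 (1.29) were next, and Myo10, Nckap1l, Cotl1, Iqgap1, Myo5a and Wdr1 lay between 0.59 and 0.93. Abi3, of the WAVE complex, was the 1 that was lower, at log2 -0.72. Of 20 Myc target genes, 17 were lower in top cells (median log2 -0.68). S phase genes were lower in 8 of 20 cases (median -0.56) and G2 and M phase genes in 2 of 20 (median -0.39). These counts of lower genes stand beside 6.96% of all genes tested, and the last is near that share. Of the 12 macrophage markers, several of which are in the score itself, 11 were higher, and of 3 monocyte markers at 10 CPM or more, 1 was higher and 2 lower.

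Prtn3 and Pf4, from marker lists of other blood cells, also differed between top and bottom cells. In the list of neutrophil and granulocyte progenitor genes, 5 of 7 have a row and Prtn3 was the 1 of at least 10 CPM, with a log2 ratio of -3.26. The summed list had a median over cells of 0 CPM in top cells and 136 CPM in bottom cells. In the megakaryocyte and platelet list, Pf4 was the 1 of 5 at that level, with a log2 ratio of 2.64. That list had a median of 324 CPM over top cells and 30.7 CPM over bottom cells, whereas Ppbp, Itga2b, Gp9 and Gp1bb were at or below 0.118 CPM over the library. Single genes do not name a cell type, and whether cells with Prtn3 or Pf4 have a part in the differences of the actin assembly genes was not tested.

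The same genes were next set along a score of 20 G2 and M phase genes, among them Top2a, Mki67 and Ccnb1. All genes tested had a median log2 ratio of 0.26 along it, so values are read against that shift. Actin assembly genes had a median of -0.02, or 0.03 when cells were ranked also within groups of the maturation score, and they held 2.84% of counts at the top and 3.003% at the bottom. Of 47, 1 was higher and 2 lower past 1.5-fold, beside 23.7% and 2.37% of the 6636 genes tested. Wipf1 was at 37.6 CPM (35.5 to 39.7) in top cells and 22.3 CPM (20.7 to 24.0) in bottom cells (log2 0.73). Capza1 (log2 0.46), Wasf2 (0.43) and Coro1c (0.34) came next without passing the limit. With ratios centred on the median gene, Wipf1 stood at 0.46 and none of the 47 was called higher, beside 9.90% of all genes.

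Rhoc was at 16.0 CPM in top cells of the G2 and M phase score, against 40.8 CPM in bottom cells (log2 -1.30). Its values from the lowest to the highest group were 40.8, 17.8, 16.5, 15.01 and 16.0 CPM, so the cells with the least G2 and M phase transcripts stand alone. Gsn was at 68.1 CPM at the top and 122 CPM at the bottom (log2 -0.84), and its values over the 5 groups were 122, 75.5, 66.1, 64.6 and 68.1 CPM. Evl (log2 -0.58) and Capg (-0.40) followed. With the centred ratios 6 of the 47 were lower, Rhoc, Gsn, Evl, Capg, Myl6 and Tmsb4x, beside 7.20% of all genes.

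Maturation moved with this score, since 9 of the 15 maturation genes were lower at its top (median log2 -0.65), beside 2.37% of all genes. When cells were ranked also within groups of the maturation score, Rhoc was at 16.8 CPM at the top and 28.8 CPM at the bottom (log2 -0.74) and Gsn at 71.7 and 95.1 CPM (log2 -0.40, no longer past 1.5-fold). Wipf1 kept a log2 ratio of 0.76. In the reverse case, ranking by maturation within groups of the G2 and M phase score left Rhoc at log2 2.91 and Gsn at 1.92. Both rankings were added after the first values had been seen. Among the 48 further actin regulators, 10 were higher and 2 lower along the G2 and M phase score, beside 23.7% and 2.37% of all genes. The count of higher genes is thus near the background. The formins Diaph3 (log2 2.65) and Diaph2 (1.55) were among the higher genes, as were Elmo1 (1.57), Dock8 (0.84) and Dock2 (0.82). The others were Svil, Ssh2, Rock2, Rock1 and Ezr. Ratios of these 10 were not centred on the all-gene median of 0.26, and how many would stay past the limit after centring was not counted. Aif1 (-0.87) and Marcks (-0.88) were the lower genes.

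Immediate-early genes such as Fos, Egr1 and Ier2 answer fast to outside signals, and several are SRF targets. Along the score of 12 such genes no actin assembly gene was past 1.5-fold in either direction, beside 0.346% of the 6650 genes tested that were higher and 1.13% that were lower. The median log2 ratio of the 47 genes was 0.09, against 0.01 over all genes tested. Coro1b and Capza2 were highest at 0.27 each, followed by Coro1a and Tmsb4x at 0.25. Tmsb4x was at 5987 CPM in top cells and 5038 CPM in bottom cells, and Actb at 7121 CPM at the top and 6753 CPM at the bottom. Rhoc was lowest at -0.31. No count of these 12 genes was found in 1362 cells, equal scores were put in random order, and 1980 cells lay near a limit of their group. Of the 48 further actin regulators 1, Diaph2, was lower (log2 -0.62), beside 1.13% of all genes tested.

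Clusters were made from genes other than the 48, the further actin regulators and the mesenchymal list, which left 10 clusters numbered by size. Genes that vary with the 48 stayed in, so the clusters are not independent of them. The 8 clusters with a median of at least 5000 counts were compared. Between the highest and lowest of them, 32 of 47 actin assembly genes were past 1.5-fold, beside 79.5% of all genes tested. The median log2 range was 0.78 for the 47 genes and 1.01 for all genes. Rhoc had the widest range, 46.8 CPM in cluster 1 against 5.36 CPM in cluster 2, and was followed by Wipf1 (4.39-fold), Actr2 (3.92-fold) and Capza2 (3.64-fold). The narrowest were Pfn1 (1.14-fold) and Arhgdib (1.196-fold). The highest values of Capza2 (240 CPM) and Pfn1 came from cluster 9, which has only 43 cells. Over the 7 clusters of at least 100 cells, 30 of 47 genes were past 1.5-fold, beside 73.1% of all genes. That alternative was added after the values had been seen.

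**Figure D4:**
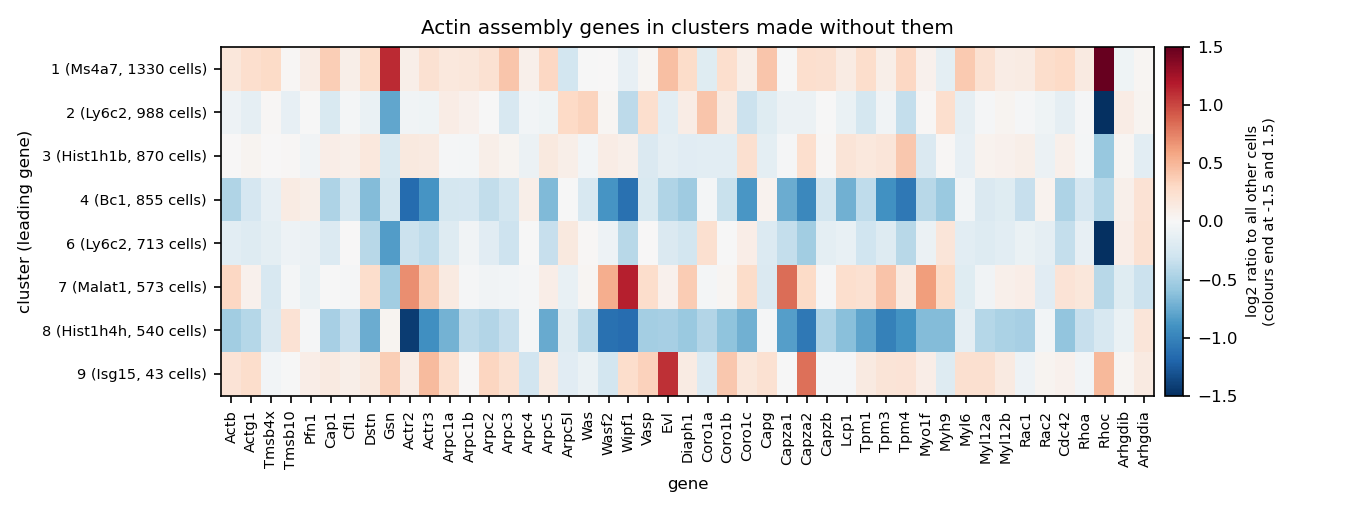
Log2 ratio of pooled CPM of 47 actin assembly genes between each cluster and all other cells, for the 8 clusters with a median of at least 5000 counts, named by number and leading gene. Red is higher and blue lower in the cluster, Rhoc and Gsn are highest in cluster 1, and clusters 4 and 8 are lower for many of the genes.

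Cluster 1 (1330 cells, led by Ms4a7, Folr2 and Fcgr4) had 2 genes past 1.5-fold higher, beside 4.28% of all genes. Rhoc was at 46.8 CPM there and 12.9 CPM in all other cells, and Gsn at 135 CPM there and 61.4 CPM elsewhere. In cluster 2 (988 cells, led by Ly6c2, Prtn3 and Ccr2) the same pair was lower, beside 5.26% of all genes, with Rhoc at 5.36 CPM against 23.4 CPM and Gsn at 48.3 CPM against 83.5 CPM in other cells. Cluster 6 (713 cells, led by Ly6c2 and Hist1h1d) had these 2 lower as well, beside 7.15% of all genes. Rhoc was at 6.44 CPM there and 23.1 CPM in other cells. Coro1a, lower at each step of maturation, was at 676 CPM in cluster 2 and 506 CPM in other cells (log2 0.42).

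Cluster 7 (573 cells, led by Malat1 and Neat1) had 4 genes past 1.5-fold higher, beside 24.2% of all genes, so the count was below the background. The median log2 ratio was 0.24 over all genes and 0.07 over the 47, and the ratios given here were not centred on that shift. G2 and M phase genes had their highest cluster median here, at log2 1.42, so the Wipf1 value is not separate from the one along that score. Wipf1 was at 49.9 CPM there and 21.8 CPM in other cells (log2 1.16), Capza1 at 69.2 and 38.2 CPM (0.84), Actr2 at 184 and 113 CPM (0.69) and Myo1f at 128 and 82.5 CPM (0.62). The nuclear RNA Malat1 itself was at 1317 CPM in this cluster.

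In clusters 4 and 8, 12 and 18 genes were past 1.5-fold lower, beside 38.2% and 41.9% of all genes, so neither count was above the background. Cluster 4 (855 cells, led by Bc1) had Actr2 at 56.9 CPM against 128 CPM in other cells (log2 -1.15), Wipf1 at log2 -1.12, Tpm4 at -1.07 and Capza2 at -0.96. Cluster 8 (540 cells, led by Hist1h4h and Hist1h4d) had Actr2 at 46.9 CPM against 127 CPM in other cells (log2 -1.42), Wipf1 at -1.14, Wasf2 at -1.12 and Capza2 at -1.07. Pfn1, by contrast, was at 1698 CPM in cluster 4 and 1579 CPM in cluster 8, against 1592 and 1601 CPM in the cells outside each. Ribosomal protein genes held 39.9% of counts in cluster 4 and 39.6% in cluster 8, the highest shares of the 10, and both are shallower than the library, at medians of 10236 and 12338.5 counts. The part of ribosomal share and depth in these lower values was not tested.

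Shares between paralogues do not depend on how the counts were scaled, though they are shares of counts and not of molecules. Over all cells Actb held 83.1% of the counts of Actb and Actg1, Tmsb4x 82.1% of those of Tmsb4x and Tmsb10, and Cfl1 93.2% of those of Cfl1, Cfl2 and Dstn. Arpc1b held 96.1% with Arpc1a, Capza2 76.2% with Capza1, Myl12a 65.9% with Myl12b, and Tpm3 77.2% with Tpm1 and Tpm4. Rac2, the form of blood cells, held 42.5% of the counts of Rac2 and Rac1.

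Along maturation 4 of the 12 shares stood furthest apart. Arpc5 held 82.4% (81.8 to 83.0) of the counts of Arpc5 and Arpc5l in top cells, against 69.2% (68.4 to 69.9) in bottom cells. Rhoc held 17.3% of the counts of Rhoa and Rhoc at the top and 2.23% at the bottom. Coro1a held 53.2% of coronin counts at the top and 67.2% at the bottom. Arhgdib held 55.8% of the counts of both inhibitors at the top and 63.7% at the bottom. Of the 12 shares, only those of Cfl1 and Capza2 had top and bottom intervals that overlap. Intervals that do not overlap are thus not particular to these 4. The actin share moved little, with Actb at 82.9% in top cells and 83.7% in bottom cells.

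**Figure D5:**
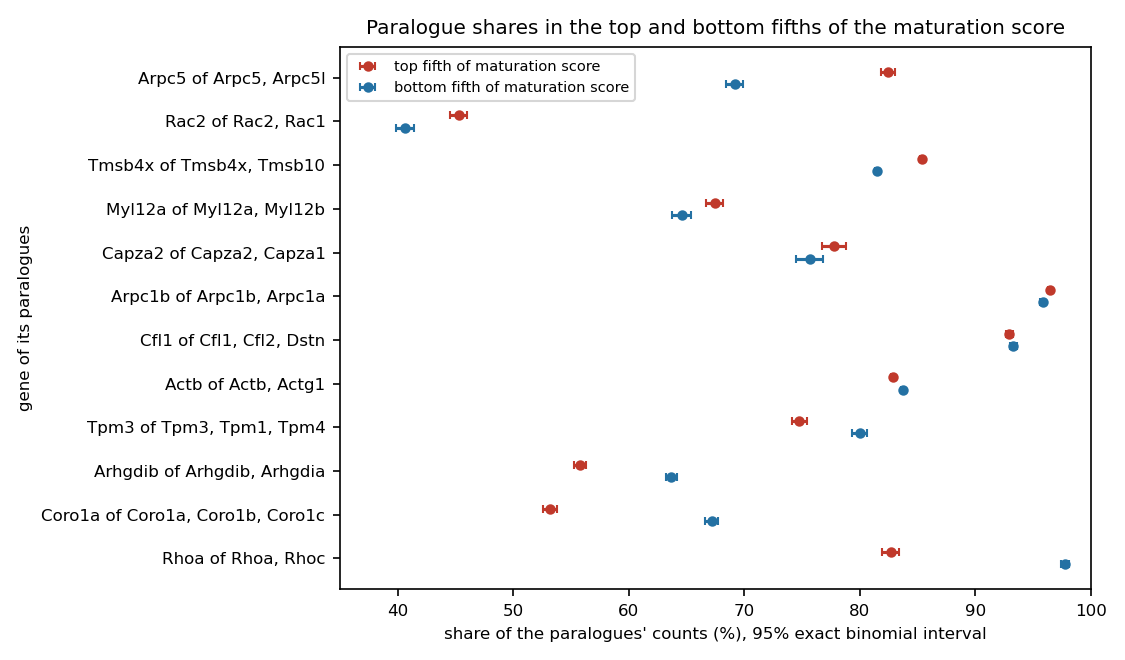
Share of the first named gene among its paralogues' counts, in percent with exact 95% binomial intervals, in top cells (red) and bottom cells (blue) of the maturation score, ordered by the difference. Arpc5 gains most at the top (82.4% against 69.2%) and Rhoa loses most to Rhoc.

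The shares also differed between clusters. Arpc5 held 80.5% with Arpc5l in cluster 1 and 70.8% in cluster 2, and Coro1a 57.3% and 69.3% of coronin counts. In clusters 4 and 8 Arpc5 held 66.2% and 67.4%, the lowest values of the 8 clusters compared. Rhoc held 15.4% with Rhoa in cluster 1 and 2.21% in cluster 2.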

How the data were processed

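The authors deposited raw counts, whole numbers for each gene in each barcode, which PISA 0.12 wrote per the file headers. The submitters' processing notes also name Cell Ranger and mm10 without saying what they were used for. Aligner and annotation were not stated, nor whether counts are of unique molecules, and the intervals would be too narrow if they are of reads.

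Barcodes with fewer than 500 genes (47) or over 15% mitochondrial counts (50) were left out, 86 in all. Levels are summed counts per 1000000 with exact Poisson intervals, and shares have exact Clopper-Pearson intervals, both at 95%. No doublet caller was run, and an alternative left out the 5% of cells with the most counts. Depth was matched by ranking within 10 bins or by thinning. Clusters came from the 2000 most variable genes, 30 principal components, 15 neighbours and the Leiden algorithm (igraph 0.11.9, scanpy 1.11.5) at resolution 0.5. Ratios have 1 CPM added. In 2 simulated pools of counts, 100 of 100 genes changed 2-fold and 0 of 6456 unchanged genes were called. Those pools held counting error only, so they cannot show how the calls stand against variation between cells or cultures. Promoters are from RefSeq (GRCm38.p6).

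The genes, lists and scores were chosen with earlier results of these data known. Along each score and in each cluster the text names up to 4 genes higher and 4 lower by absolute log2 ratio. Cap1, Arpc3, Myl6, Tpm4 and Coro1c along maturation, the 6 genes lower on centred G2 and M phase ratios, the narrowest ranges and the genes drawn in figures were picked with their values in view.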

Additional observations from a re-analysis of the deposited data

How the results depend on the processing

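No paired analysis was possible because the data are 1 matrix without replicates and no test was made. No gene called along a score changed direction under the alternatives run, whereas the median log2 ratio of the 47 genes along the G2 and M phase score, -0.02, ran from -0.29 to 0.03. Of the 48 genes, 48 reached 5 CPM and 40 reached 50 CPM, and the count at 10 CPM was 47 under the 6 other alternatives. Their share of all counts was 2.7896% with no filter on cells and 2.7895% without cells under 5000 counts. It was 2.81% without the 5% deepest cells, and 4.62% when ribosomal, mitochondrial and rRNA-locus genes were left out of the total. Along maturation, a 2-fold limit left 2 genes higher (Rhoc and Gsn) and 0 lower, beside 4.29% and 0.617% of all genes. The highest and lowest of 10 groups of cells gave 10 of 47 higher, beside 14.5% of all genes. Along the G2 and M phase score 0 genes were higher with a pseudocount of 10 CPM (12.3% of all genes), at 2-fold (6.19%) or with centred ratios (9.90%). There, 1 was lower at 2-fold (0.527% of all genes), 6 with centred ratios (7.20%) and 1 when ranked also within groups of maturation (1.05%). Along the immediate-early score 1 gene, Rhoc (log2 -0.59), was lower when ranked also within groups of the G2 and M phase score, beside 0.301% of all genes. Between clusters 13 of 47 genes were past 2-fold, beside 50.3% of all genes. Counts past 1.5-fold ran from 23 with the other scaling, beside 78.7% of all genes, to 46 at resolution 1.0, beside 96.5%. Thinning to 5000 counts gave a median squared variation of 0.163 and a median r of 0.11. No paralogue share over all cells moved by more than 0.130 percentage points. Arpc3 was the gene most often short of 1.5-fold along maturation, under 5 of 13 alternatives including the 2-fold limit, with log2 ratios from 0.54 to 0.76. With 1 sample, variation between cultures could not be measured, and values below about 10 CPM rest on few counts per cell.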
